A study of Mus musculus with 4 samples.

Results

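The piRNA pathway genes examined here are 10 germ cell genes of the mouse, Piwil2, Piwil4, Mov10l1, Tdrd9, Mael, Tdrd1, Tdrd5, Tdrd7, Asz1 and Gtsf1. They were chosen by name, with earlier results of these data known, so counts of members stand beside shares of all genes as description only. Every probe set annotated to one of them was taken, 14 of the 45037 used, and 10 of the 18193 genes measured. RNA from 4 cultures was hybridised to Affymetrix arrays, 1 array per group. Stem cells of the spermatogonial lineage that are kept in culture are called germline stem (GS) cells, and multipotent germline stem (mGS) cells are cultured germline cells that have acquired properties of embryonic stem cells. The embryonic stem (ES) culture was the R1 line, an established mouse line. The last culture was GS cells from a Trp53 KO mouse, labelled ICR, and p53, which Trp53 encodes, is a transcription factor of the DNA damage response. The labels put GS cells in a StemPro-34 based medium and the ES and mGS cells in a standard ES medium, and for the GS and mGS cultures they give no strain, genotype, age, passage or number of donors. Cell type and medium therefore cannot be told apart between the GS and the mGS or ES arrays. The probe sets of the targeted gene were not analysed here, so the KO label was not checked at its own gene.

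PIWI proteins are Argonaute-family proteins that bind small piRNAs and use them to recognise transposon transcripts. In the male germ line, precursor transcripts are unwound and cut at the mitochondrial surface and in neighbouring granules called nuage, loaded on PIWI proteins with the help of Tudor domain proteins, and used either to cleave transposon RNA or to direct DNA methylation in the nucleus. The pathway is known for keeping LINE1 and IAP elements silent in male germ cells, and mouse mutants in most of its genes are male sterile.

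Values are signals on a linear scale after the arrays were given a common distribution (quantile normalization). The floor, the median of an array, lay at a signal of 82.7, and lower values were set to this floor before differences were taken. Such a difference is a bound, written as at least N-fold. With 1 array per group no difference has a replicate check, no spread between cultures is known for any neighbouring levels, and no test was made. Differences between probe sets of one gene give a measure of scatter on the array: their standard deviation was 0.50 on the log2 scale for mGS minus GS, 0.61 for ES minus GS, 0.49 for KO minus GS and 0.45 for ES minus mGS. In RNA of a whole culture, fewer cells of a type and less RNA per cell cannot be told apart. Genes of germ cells at large (6 markers) were all above the floor on the GS, KO and mGS arrays and 3 were on the ES array, with summed signals of 62726.5, 68103.5, 2535 and 1431. Of 10 markers of pluripotent cells, 7 were above the floor on the GS and on the KO array and all 10 on the others, and the sums were 7740, 7070, 99592 and 87460 for GS, KO, mGS and ES. Of 12 markers of undifferentiated spermatogonia, 12, 10, 10 and 10 were above the floor on the GS, KO, mGS and ES arrays, with sums of 31039, 26205, 27235 and 33988. Its genes went different ways, on mGS against GS 6 of the 12 at least 2-fold lower and 3 higher, with Zbtb16 at 8212 on GS, 127 on mGS and 60.9 on ES and Cdh1 at 1541, 4894 and 9237. Fibroblast (feeder cell) markers stood apart on the ES array, where 11 of 12 were above the floor and summed to 49608.5, against 6 of 12 and 1061 on GS, 8 of 12 and 4769 on mGS and 8 of 12 and 3112 on KO.

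All 10 members were above the floor on the GS and on the KO array, 6 members were on that of mGS and 4 on that of ES. In each of the 10, the KO signal was the highest and the GS signal the second of the 4 arrays, although KO exceeded GS for Mael and Tdrd5 by less than the scatter between probe sets. With the arrays centred on their medians both were lower on KO, and so was Mael with the deposited values and with the pseudocount. Centring also brought the log2 differences of Mov10l1, Gtsf1 and Asz1 from 0.52, 0.60 and 0.62 to 0.18, 0.24 and 0.28, under that scatter. Of the 12897 genes that passed the floor anywhere, 21.7% had KO over GS over both of the others. The lowest signal was on ES for 6 members and on mGS for Tdrd7, while Piwil4, Tdrd9 and Tdrd1 were under the floor on both, where values have no order. At least 2-fold in every pair of arrays, 9 members were lower on mGS and ES than on GS and KO, the exception being Tdrd9, against 8.38% of those 12897 genes.

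**Figure D1:**
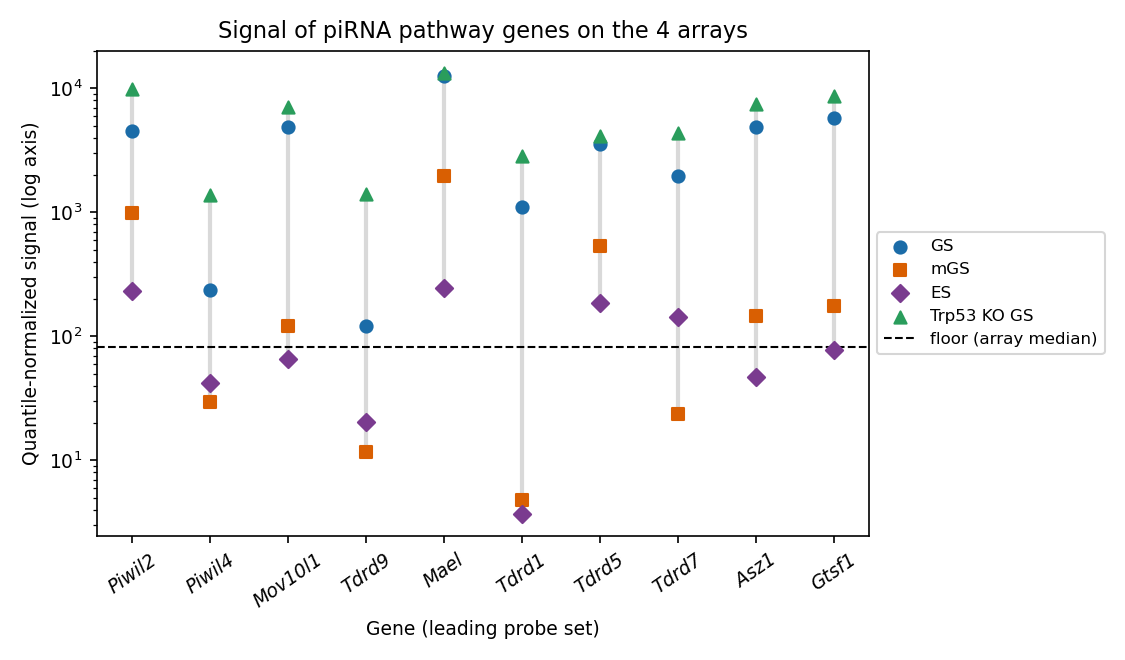
Quantile-normalized signal (log axis) of the leading probe set of each gene on the GS, mGS, ES and Trp53 KO GS arrays, 1 point per array, with the floor of 82.7 as a dashed line. For every gene the GS and KO points lie above the floor and above both other points, and the ES points of 6 genes lie under the floor.

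Both PIWI genes of the set were lower on the mGS and ES arrays. Piwil2 encodes MILI, the PIWI protein that cleaves transposon RNA and starts the amplification of piRNAs. Its signal was 4571 on GS, 984 on mGS, 232 on ES and 9887 on KO. All 4 arrays were above the floor, with mGS between GS and ES. Piwil2 was 4.64-fold lower on mGS than on GS, 19.7-fold lower on ES than on GS and 2.16-fold higher on KO than on GS. Piwil4 encodes MIWI2, the PIWI protein that enters the nucleus of male germ cells around birth and directs methylation of transposon DNA. Its signal was 238 on GS, 29.6 on mGS, 42.3 on ES and 1370.0 on KO. The mGS and ES values were under the floor, so both differences from GS were bounds of at least 2.88-fold, and KO was 5.76-fold higher than GS. That probe set has an identifier of the kind prone to cross-hybridisation. The other Piwil4 probe set read 78.9 on GS, 22.0 on mGS, 1.56 on ES and 155 on KO, so it was above the floor on the KO array alone, where it was at least 1.87-fold higher than on GS.

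Mov10l1 encodes an RNA helicase that binds piRNA precursors and is needed to load both MILI and MIWI2. Its signal was 4907 on GS, 122 on mGS, 65.3 on ES and 7048 on KO. The mGS value lay just above the floor and the ES value under it. Mov10l1 was 40.3-fold lower on mGS than on GS, with 17 of the 11981 genes compared further down where bounds are taken as values, and at least 59.4-fold lower on ES. Tdrd9 encodes a helicase with a Tudor domain that is a partner of MIWI2. Its signal was 121 on GS, 11.6 on mGS, 20.2 on ES and 1397 on KO. The GS value was close to the floor, so the bounds for mGS and ES against GS were at least 1.46-fold, and the array could not show how much lower they were. Tdrd9 was 11.6-fold higher on KO than on GS, and 4 of the 11623 genes compared had a larger difference in that direction, bounds as values.

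Mael, a germ cell gene whose protein lies in nuage and in the nucleus and is needed for transposon silencing, was above the floor on every array. It read 12629 on GS, 1956 on mGS, 246 on ES and 13383 on KO. GS and KO were nearly equal, with mGS under them and ES lower again. Mael was 6.46-fold lower on mGS than on GS, 51.4-fold lower on ES than on GS and 1.06-fold higher on KO, where the last value turned to lower under 3 of 9 alternatives (the deposited values, centring on medians and the pseudocount). Gtsf1 encodes a small zinc finger protein that binds PIWI proteins and helps them cleave their targets. Its leading probe set read 5733 on GS, 177 on mGS, 77.5 on ES and 8666 on KO, and the other read 3686, 149, 82.5 and 6889. The leading one has an identifier of the kind prone to cross-hybridisation. Both probe sets had KO highest, mGS low but above the floor and ES just under it. By the leading one, Gtsf1 was 32.4-fold lower on mGS and at least 69.4-fold lower on ES than on GS, and by the other the log2 differences were -4.63 and, as a bound, -5.48.

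The genes for Tudor domain proteins, which bind methylated arginines of PIWI proteins and gather them in nuage, covered a wide range. Tdrd1, a partner of MILI, read 1101 on GS, 4.77 on mGS, 3.73 on ES and 2861 on KO. The mGS and ES values were far under the floor, so the bound was at least 13.3-fold lower on each than on GS, and KO was 2.60-fold higher than GS. Tdrd5, which binds piRNA precursors, read 3571 on GS, 539 on mGS, 187 on ES and 4105 on KO. All 4 values were above the floor. Tdrd5 was 6.63-fold lower on mGS than on GS, and its log2 difference for ES minus GS was -4.26. It was 1.15-fold higher on KO, which became a log2 difference of -0.10 with the arrays centred on their medians. Tdrd7, a component of the chromatoid body, the granule of round spermatids, read 1980.0 on GS, 23.6 on mGS, 144 on ES and 4337 on KO. It was the one member with the ES value above the floor and the mGS value under it. It was at least 24.0-fold lower on mGS and 13.7-fold lower on ES than on GS, and 2.19-fold higher on KO. Its other probe set was under the floor on all 4 arrays, with a highest value of 45.3 on ES, and gave no difference. Asz1 encodes GASZ, a scaffold on the outer membrane of mitochondria that holds the piRNA machinery there. Its leading probe set read 4866 on GS, 146 on mGS, 47.2 on ES and 7483 on KO, and the other read 3681, 105, 73.2 and 6955. Both had the order KO, GS, mGS, ES, with ES under the floor. Asz1 was 33.2-fold lower on mGS and at least 58.9-fold lower on ES than on GS by the leading probe set.

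**Figure D2:**
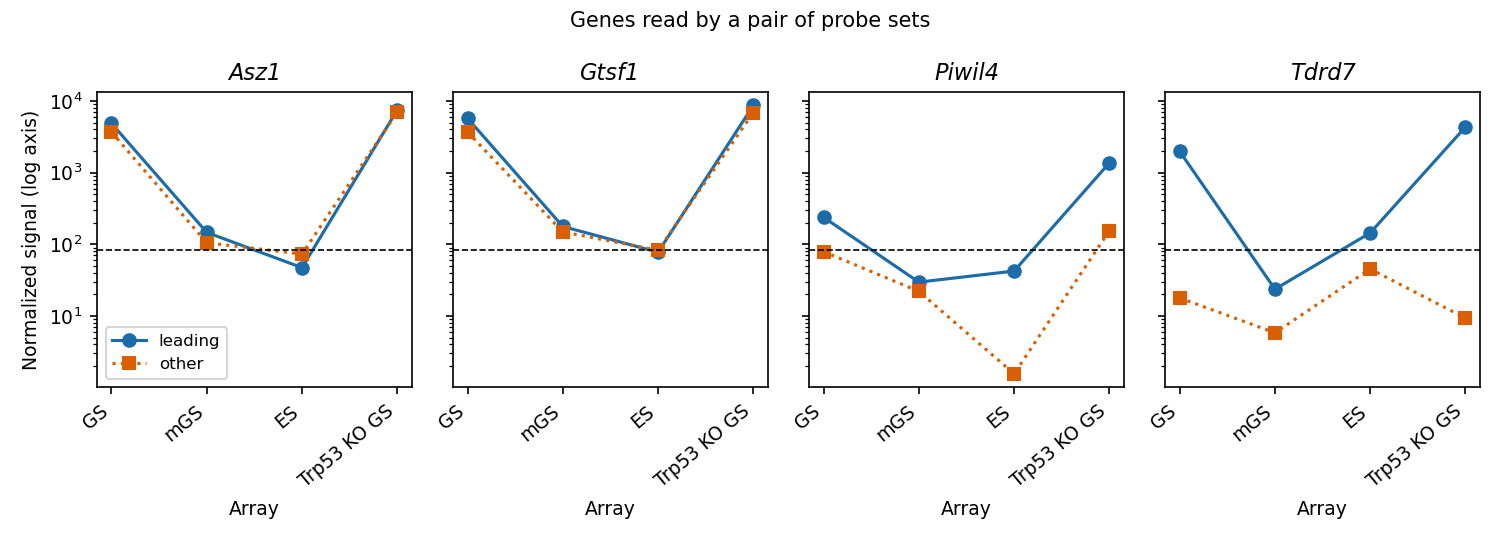
Normalized signal (log axis) on the 4 arrays for the 4 members read by a pair of probe sets, with the leading probe set as circles, the other as squares and the floor of 82.7 dashed. The pairs follow each other for Asz1 and Gtsf1, while the other probe set of Tdrd7 lies under the floor on every array and that of Piwil4 exceeds it on the KO array alone.

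The comparison of mGS with GS was made by the study to look for molecules involved in the change of one into the other. Of the 10 members, 9 were lower on mGS by 2-fold or more and none was higher by as much, against 16.5% of all 11981 genes lower and 15.3% higher. The exception was Tdrd9, for which only a bound below 2-fold could be had. The count was 8 with the mean of probe sets, without probe sets prone to cross-hybridisation and with the floor at the 60th percentile. Each of these left out Piwil4, and the shares of all genes as low were 14.6%, 16.7% and 16%. The count was 10 with the floor at the 30th percentile, with no floor and with the pseudocount, against 17%, 22.1% and 14.9% of genes. With the mean of its probe sets, Tdrd7 was at least 2.27-fold lower on mGS and on ES than on GS. At least 4-fold lower were 8 members, against 4.08% of all genes. Of the 10 differences 6 were measured on both arrays and 4 were bounds, and the median log2 difference with the bounds as values was -3.23, against -0.04 over all genes. Among the measured differences, those of Mov10l1, Asz1 and Gtsf1 ran from 32.4-fold to 40.3-fold and those of Piwil2, Mael and Tdrd5 from 4.64-fold to 6.63-fold, and the other 4 were known as bounds only. With the KO array in place of the GS array, all 10 members were at least 2-fold lower on mGS, against 21.7% of genes, and the median was -4.60; that comparison was added after the data were seen. On the mGS array all 6 markers of germ cells at large were at least 2-fold lower than on GS and all 10 of pluripotent cells at least 2-fold higher; their part in these differences was not tested.

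On the ES array, 9 of 10 members were at least 2-fold lower than on the GS array, against 17.2% of genes, and none was higher, against 17.4%. At least 4-fold lower were 8, against 4.50% of genes, with a median log2 difference of -4.28 over 4 measured values and 6 bounds. Against the KO array all 10 were at least 2-fold lower on ES, with a median of -5.26 and 21.5% of genes as low. With the mean of probe sets, without probe sets prone to cross-hybridisation and with the floor at the 60th percentile, 8 members were at least 2-fold lower on ES than on GS, again without Piwil4. The shares of all genes as low were 15.8%, 17.8% and 16.8%. All 6 markers of germ cells at large were lower by as much on ES than on GS, 11 fibroblast markers were higher, and the median of the added poly-A control dap, as deposited over 6 probe sets, was 271 on GS and 2545 on ES. Their part in these differences was not tested. These comparisons share the GS or KO array with those of mGS, so their agreement is not independent.

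**Figure D3:**
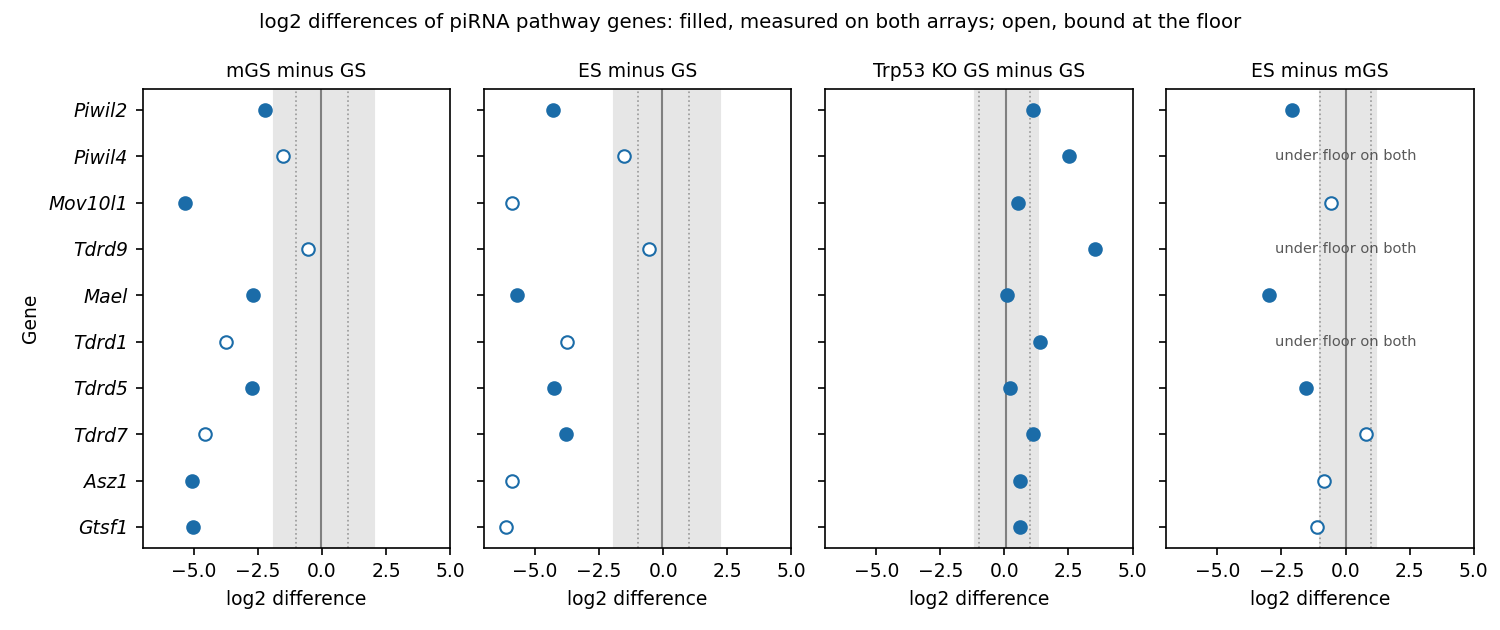
log2 differences of the 10 members in 4 comparisons (filled points, both arrays above the floor; open points, bounds at the floor), with the range from the 5th to the 95th percentile of all genes compared in grey, its median as a line and 2-fold as dotted lines. In mGS minus GS and ES minus GS all points but those of Piwil4 and Tdrd9 lie left of the grey range, and in KO minus GS Tdrd9, Piwil4 and Tdrd1 lie right of it.

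The arrays of the cells in ES medium differed from each other as well. Of the 7 members above the floor on at least 1 of the mGS and ES arrays, 4 were at least 2-fold lower on ES, against 5.13% of 11816 genes, and none was 2-fold higher, against 6.90%. The median log2 difference was -1.10, against 0.00 over all genes. Mael was 7.96-fold lower on ES, Piwil2 4.25-fold and Tdrd5 2.89-fold, and these 3 were the members above the floor on both arrays. Gtsf1 was at least 2.14-fold lower, but by its other probe set the log2 difference was -0.85. The count was 3 with deposited values, the mean of probe sets, the floor at the 60th percentile, or without probe sets prone to cross-hybridisation. The shares of all genes as low were 4.46%, 5.3%, 4.1% and 5.4%. It was 5 with the floor at the 30th percentile and with no floor, against 7.62% and 14.1%. Asz1 and Mov10l1 were at least 1.77-fold and 1.47-fold lower, and Tdrd7 went the other way, at least 1.74-fold higher on ES. Piwil4, Tdrd9 and Tdrd1 were under the floor on both. The 11 fibroblast markers above the floor on the ES array, against 8 on mGS, moved with this comparison, and so did dap, with medians of 255 on mGS and 2545 on ES. Germ line markers went both ways. Those of germ cells at large went from 6 to 3 above the floor and from a sum of 2535 to 1431. The meiotic ones went from 5 to 2 and from 1603 to 498. Those listed for differentiating spermatogonia, Neurog3 included, went from 3 to 2 and from 1661 to 548. Among germ cells at large, 2 of 6 passed 2-fold downward from mGS to ES and 1 upward, Sycp3, from 139 to 373. The sum for undifferentiated spermatogonia rose from 27235 to 33988, with 2 of 11 past 2-fold upward and none downward. Those past 2-fold were Thy1, from 192 to 1256, and Lin28a, from 3086 to 6583, and Cdh1 went from 4894 to 9237. Zbtb16 went from 127 to 60.9, under the floor, and Etv5 from 6360 to 4617, so the rise in the sum was not shared by the list. The part of these markers and of dap in the differences was not tested.

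The KO culture was labelled ICR and the GS culture had no strain given, so Trp53 genotype, strain and donor cannot be told apart between them. Between KO and GS cultures, which were labelled as the same cell type, 5 members were at least 2-fold higher on the KO array, against 9.77% of 11623 genes, and none was lower, against 6.93%. They were Tdrd9, Piwil4, Tdrd1, Tdrd7 and Piwil2, of which Tdrd9 and Piwil4 were also past 4-fold, against 1.10% of genes. The median log2 difference was 0.87, against 0.07 over all genes. The other 5 members lay within 2-fold of GS, Asz1 at 1.54-fold, Gtsf1 at 1.51-fold, Mov10l1 at 1.44-fold, Tdrd5 at 1.15-fold and Mael at 1.06-fold higher. With the deposited values, with centring on medians and with the pseudocount, 3 members were at least 2-fold higher, Piwil4, Tdrd9 and Tdrd1, against 10.6%, 7.21% and 9.92% of genes. Piwil2 and Tdrd7 stood close to the 2-fold line. Without probe sets prone to cross-hybridisation 4 members passed it, against 9.67%, and Piwil4 did not, at a bound of at least 1.87-fold. With the mean of probe sets 4 passed, against 8.28%, and Tdrd7 was 1.07-fold higher. Over all genes, centring turned the split from 1135 higher and 805 lower to 838 higher and 1072 lower. The median of dap was 271 on the GS and 3055 on the KO array. Of 12 markers of undifferentiated spermatogonia, 7 were at least 2-fold lower on KO than on GS and none was higher by as much, among them Etv5 at 507 against 1955, Itga6 at 907 against 4109 and Gfra1 at 655 against 1564, while Lhx1 and Cdh1 were under the floor on KO and read 886 and 1541 on GS. The 5 genes listed for differentiating spermatogonia went both ways, 3 at least 2-fold higher and 1 lower, with sums of 9911 on KO and 7119 on GS. Stra8 read 2794 against 389, Kit 361 against 80.4, the latter under the floor, Sohlh2 2135 against 4633 and Sohlh1 636 against 1054. Neurog3, at 3985 against 963, is also expressed in undifferentiated spermatogonia and is not among the 12 above. Of the 6 meiotic markers 3 were at least 2-fold lower on KO, with sums of 6535 and 11609. Of 8 fibroblast markers compared, 5 were at least 2-fold higher on KO than on GS and none was lower by as much. Over all 12 listed the sums were 3112 on KO and 1061 on GS. The part of these in the differences was not tested.

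As a measure of likeness between patterns, the root mean square distance was taken over the floored log2 differences of mGS, ES and KO from GS. Where a difference is a bound, the floor sets part of the distance. Piwil2, Mael and Tdrd5 had all 3 differences measured, and of these Piwil2 and Tdrd5 lay 0.60 apart and Mael and Tdrd5 0.83. For Mov10l1, Asz1 and Gtsf1 the mGS and KO differences were measured and the ES ones were bounds. With these bounds as values, Asz1 and Gtsf1 lay 0.14 apart and Mov10l1 and Asz1 0.17. No distances are given for Tdrd1, Tdrd7, Piwil4 and Tdrd9, whose differences on mGS were bounds. Set against the median of the members, bounds again as values, the nearest of 10701 other genes above the floor on GS were Rnf227 at 0.24, the synaptonemal complex gene Sycp2 at 0.34, Crispld2 and Cfap300 at 0.42 each and Galnt12 at 0.43. These are 4 arrays with 3 differences, and the distances are descriptive.

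The remaining pathway genes were taken from a list of 31, of which 26 were measured. They did not share one direction: on mGS against GS, 10 were at least 2-fold lower, against 16.5% of all genes, 6 at least 2-fold higher, against 15.3%, and 10 within 2-fold, with a median log2 difference of -0.49. Among partners of the members in nuage, the helicase gene Ddx4 (VASA) was 16.5-fold lower, Stk31, a Tudor domain gene, 15.9-fold, and Tdrkh, a Tudor protein of mitochondria that aids the trimming of piRNA ends, 5.20-fold. The piRNA methyltransferase gene Henmt1 was at least 5.73-fold lower, Exd1, a partner of Tdrd12, 4.31-fold, Btbd18, a factor for transcription of piRNA precursors, at least 4.23-fold, Tex15, needed for methylation of transposons, 9.78-fold, and Adad1, a testis RNA-binding gene, at least 11.6-fold. Gpat2, a mitochondrial acyltransferase that takes part in primary piRNA biogenesis, was at least 6.59-fold lower on ES than on mGS, and 3.85-fold lower on mGS than on GS. Among the higher ones, Dnmt3l, the cofactor of de novo methylation, was at least 117-fold higher on mGS than on GS, Tex19.1, a retrotransposon control gene, 5.69-fold, and Morc1, which represses transposons in the male germ line, 4.70-fold. Rpp25, an RNase P subunit on the list, was 9.52-fold higher.

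On KO against GS, 8 of the 26 passed 2-fold upward, against 9.77% of all genes, and none downward, against 6.93%, with a median log2 difference of 0.58. Tex19.1 was the one past 4-fold, at 10.8-fold higher. On ES against GS, 11 were at least 2-fold lower, against 17.2% of genes, and 5 higher, against 17.4%, with a median of -0.54. On ES against mGS, 4 of 22 compared were lower, against 5.13%, and none higher, against 6.90%, with a median of -0.25.

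**Figure D4:**
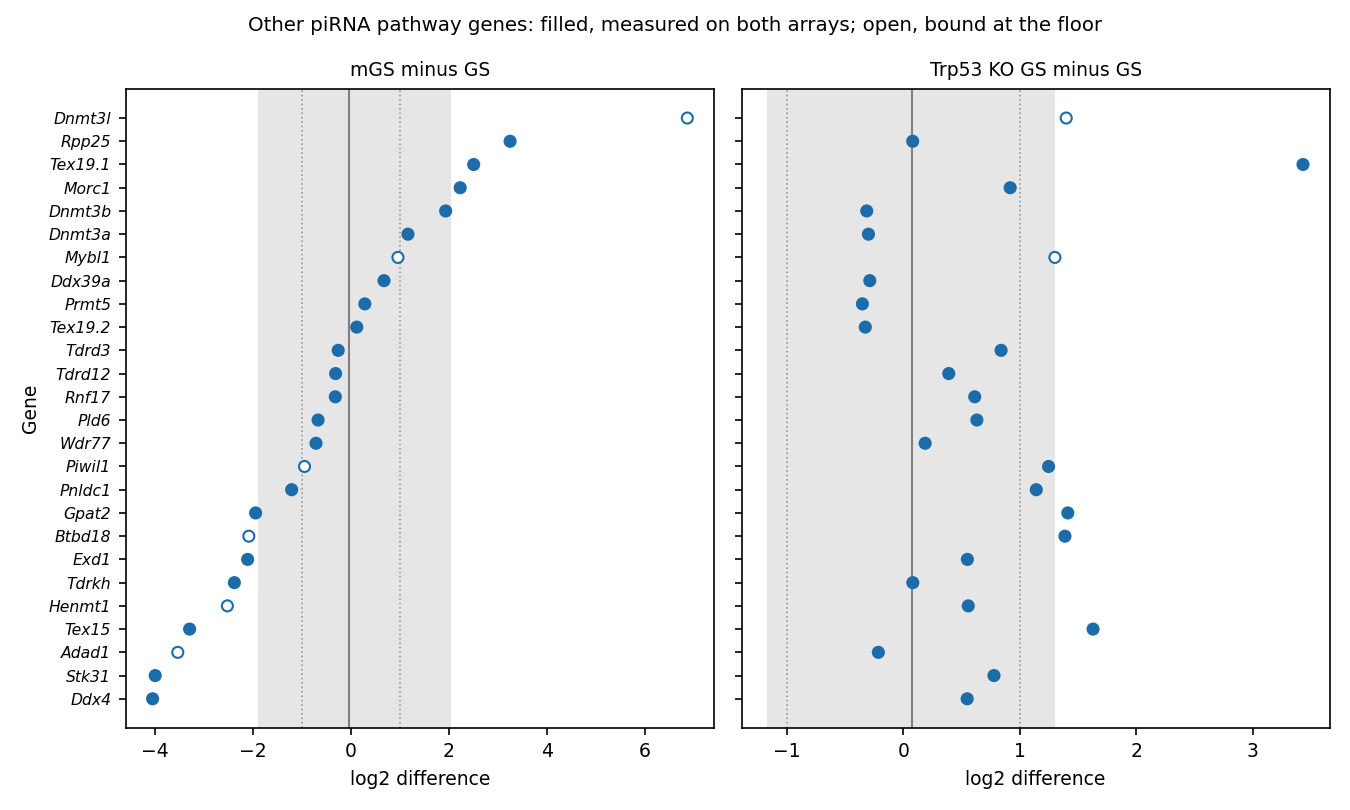
log2 differences of the 26 other piRNA pathway genes measured, for mGS minus GS and KO minus GS, sorted by the first (filled points, both arrays above the floor; open points, bounds), with the 5th to 95th percentile range of all genes in grey, its median as a line and 2-fold as dotted lines. Genes spread to both sides on mGS minus GS, from Ddx4 at -4.05 to Dnmt3l at 6.87, and Tex19.1 stands to the right on KO minus GS at 3.43.

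The members lie on different chromosomes, apart from Mael and Tdrd5 on chromosome 1 and Mov10l1 and Gtsf1 on chromosome 15. Since most were low together on mGS and ES, their promoters were compared. RefSeq promoter windows of GRCm38.p6, 250 bases before to 50 after a transcription start, were found for 9 of 10 members, in 14 windows, and not for Piwil2. The hexamer CACGTG, an E-box that reads the same on both strands and holds a CpG itself, was present in windows of 4 of 9 members, Mael, Tdrd1, Mov10l1 and Tdrd9, against 8.09% of 27025 genes. For each of them 1 window is shown, 5′ to 3′ on the strand of the gene, with the hexamer in capitals. The window of Mael is chr1:166238695-166238994 on the minus strand, that of Mov10l1 chr15:88982744-88983043, that of Tdrd1 chr19:56825959-56826258 and that of Tdrd9 chr12:111971309-111971608, the last 3 on the plus strand.
Mael: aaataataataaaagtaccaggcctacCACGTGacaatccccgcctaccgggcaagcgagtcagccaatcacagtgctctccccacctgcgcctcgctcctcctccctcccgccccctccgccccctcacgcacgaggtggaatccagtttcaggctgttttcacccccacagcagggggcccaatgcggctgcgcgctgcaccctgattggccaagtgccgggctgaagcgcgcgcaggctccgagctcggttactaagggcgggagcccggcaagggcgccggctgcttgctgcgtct
Mov10l1: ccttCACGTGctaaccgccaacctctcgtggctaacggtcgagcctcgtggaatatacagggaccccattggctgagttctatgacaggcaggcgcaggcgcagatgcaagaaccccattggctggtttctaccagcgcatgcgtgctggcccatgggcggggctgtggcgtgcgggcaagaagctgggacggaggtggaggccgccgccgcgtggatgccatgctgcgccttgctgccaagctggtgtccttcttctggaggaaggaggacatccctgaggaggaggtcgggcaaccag
Tdrd1: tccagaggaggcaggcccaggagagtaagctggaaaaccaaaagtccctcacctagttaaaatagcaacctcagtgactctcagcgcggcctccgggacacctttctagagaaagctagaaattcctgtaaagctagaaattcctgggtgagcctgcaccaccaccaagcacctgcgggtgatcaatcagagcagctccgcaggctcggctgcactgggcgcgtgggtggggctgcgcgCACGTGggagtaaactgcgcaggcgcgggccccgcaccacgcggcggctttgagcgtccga
Tdrd9: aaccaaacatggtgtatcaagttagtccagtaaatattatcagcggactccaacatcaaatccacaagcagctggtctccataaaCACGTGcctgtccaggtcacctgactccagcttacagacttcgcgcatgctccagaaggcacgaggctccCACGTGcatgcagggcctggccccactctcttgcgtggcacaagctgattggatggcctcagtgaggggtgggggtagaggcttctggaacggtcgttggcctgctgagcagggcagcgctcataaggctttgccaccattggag

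The E-box began 223 bases before the start in Mael, 246 in Mov10l1, 11 in Tdrd1 and, in Tdrd9, 165 and 95 bases before it. An overlapping window of a second Tdrd1 start, chr19:56826025-56826324, holds the same hexamer 77 bases before that start and is not shown. A match is a description of letters only and names no bound factor. The letters GCGGGA, read on both strands and known from E2F sites, were in windows of 2 of 9 members, Mael and Tdrd5, against 22.0% of genes. The letters CNGTTA, read on both strands and part of MYB sites, were in 4 of 9, against 25.9%. The letters TATAAA on either strand were in 3 of 9, against 15.7%. In the members' windows no match of one motif overlapped a match of another.

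CpG dinucleotides were more frequent in the members' windows than in most. Taking the window of highest ratio per gene, the number of CpG over that expected from the C and G content had a median of 0.78 over the 9 members, against 0.41 over all genes. It was highest for Tdrd5 and Tdrd7, 1.11 each, at the 97.9th percentile of genes, and lowest for Tdrd9, 0.43, at the 51st. Tdrd1 had 0.81, Asz1 and Mael 0.78 each, Mov10l1 0.67, Piwil4 0.54 and Gtsf1 0.53.

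**Figure D5:**
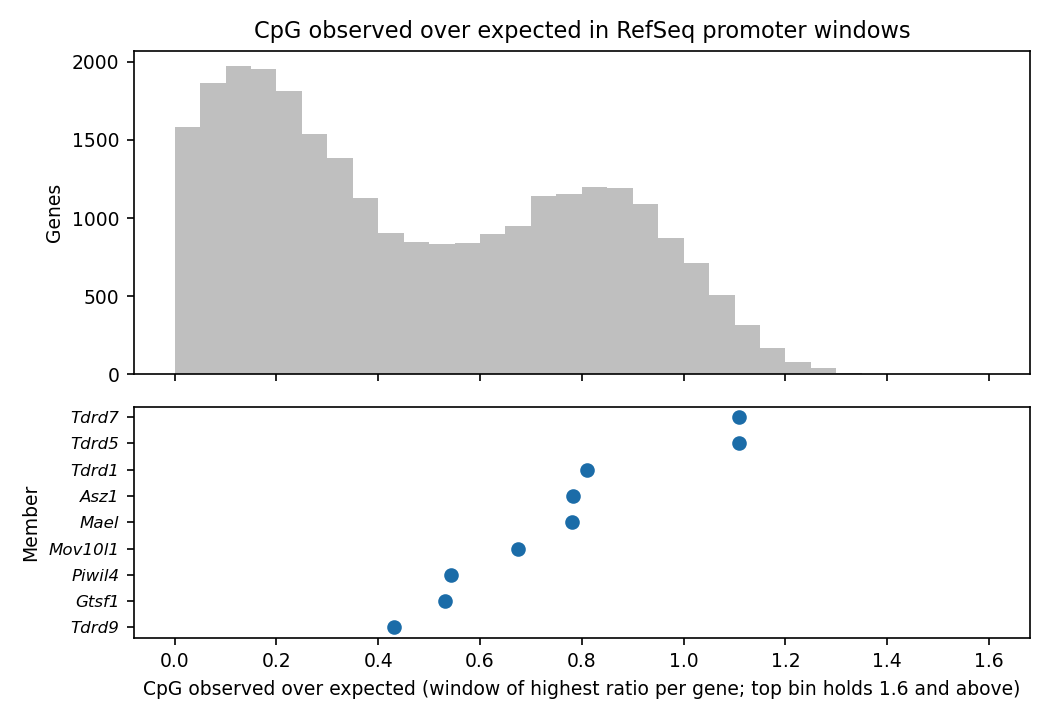
Observed over expected ratio of CpG in RefSeq promoter windows, using each gene's window of highest ratio: the upper panel counts all 27025 genes in bins and the lower panel marks the 9 members with a window. All members but Tdrd9 lie above 0.5, where the median of all genes is 0.41.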

How the data were processed

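RNA of 4 mouse cultures, 1 array each, was measured on an Affymetrix platform. Trizol was used for extraction and the cRNA carried biotin, per the labels' protocols. The values that the authors deposited are probe set intensities, linear and not logarithmic, and which software made them is not stated in the sources used here. After trimming 2% from each end their mean was 500 on every array, so they had been scaled.

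The 64 control probe sets were dropped and 45037 of 45101 kept. log2 intensities were quantile normalized over the 4 arrays, which hides a change in total RNA. In the platform annotation 34958 of 35890 probe sets had 1 symbol; the 932 with several were left out, and 9160 of those kept had no entry. Symbols were updated through gene identifiers in the GRCm38.p6 gene table, matched for 34754. The probe set of highest mean stood for a gene; 6 members had 1 probe set and 4 had 2. As floor served each array's median, a log2 value of 6.37; where neither array of a comparison reached it, a gene was not compared. Counts were made at 2-fold, without tests. Named were all members, pathway genes past 4-fold in any of 3 comparisons, and the 5 genes nearest in pattern. The members and lists were chosen with earlier results of these data known. Steps were tested on simulated data.

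Other settings tried were no quantile step, median centring, averaging a gene's probe sets, dropping those prone to cross-hybridisation, a floor at percentile 30 or 60 or none, adding 32 before the logarithm, and keeping ambiguous probe sets. The number of arrays limits the precision. Python 3.11.15, numpy 2.4.6, pandas 2.3.3 and matplotlib 3.10.9 were used. Sequences are from RefSeq.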

Additional observations from a re-analysis of the deposited data

How the results depend on the processing

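No member's difference of 2-fold or more changed sign under those of the 9 other settings that gave it a value, or, for mGS and ES, with the knockout array as control. Piwil4 could be compared under 8 of the 9 for mGS minus GS and ES minus GS, having no value without probe sets prone to cross-hybridisation. Of 345 single differences recomputed, 287 moved by less than the standard deviation between probe sets of a gene and 58 by more. The median of the members for mGS minus GS was -2.71 with the mean of probe sets, -4.00 with the floor at the 30th percentile, -4.20 without a floor, -3.79 with the pseudocount and -4.60 against the knockout array; values without a floor rest on signals under it. For ES minus GS it was -4.99 without a floor and -5.26 against the knockout array. For ES minus mGS it was -1.81 with the floor at the 60th percentile, where 4 members could be compared, and -0.67 with the pseudocount. In ES minus mGS, 1 member, Tdrd7, was at least 2-fold higher with the floor at the 30th percentile, without a floor and with the pseudocount. The shares of all genes as high were 9.12%, 15.1% and 7.73%, and the mGS signal of Tdrd7, 23.6, lay under the main floor. In Trp53 knockout minus GS, 3 members were at least 2-fold higher with the deposited values, with centring and with the pseudocount. The cause was not tested. Over 12897 genes, the median shift of a gene's difference on centring was -0.12 for ES minus GS and for knockout minus GS. With the deposited values the median shift was -0.12 for mGS minus GS and 0.09 for knockout minus GS. No paired analysis was possible because each group has 1 array. Signal over background limits Tdrd9 and Piwil4, which lay near the floor on GS.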

Other observations

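Over all genes with a RefSeq promoter window, the differences of those holding CACGTG were set beside those of all such genes, which include them. On mGS against GS, 16.8% of 1195 genes with the hexamer were at least 2-fold lower, against 16.5% of all 9725 genes compared, and the median log2 differences were -0.07 and -0.05. On ES against GS the shares were 19.3% of 1185 and 17.3% of 9831 genes, with medians of -0.10 and -0.03. On knockout against GS, 5.71% of 1174 and 6.68% of 9462 genes were lower by as much, with medians of 0.16 and 0.08.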
